A study of Rattus norvegicus with 6 samples.

Results

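The aminoacyl-tRNA synthetase genes were examined in mesenchymal stem cells of rat bone marrow, stromal cells with the capacity to become bone, fat or cartilage cells. The members were taken by symbol: a letter for the amino acid followed by "ars" with the suffix 1, 2 or none, the double synthetase gene Eprs1, both phenylalanine subunit genes Farsa and Farsb, and the scaffold genes Aimp1, Aimp2 and Eef1e1. The rule found 40 of the 21026 genes in the table. They comprise 20 cytosolic synthetase genes, 17 mitochondrial synthetase genes (suffix 2) and 3 scaffold genes. The comparison is between 3 libraries of cells labelled young and 3 labelled aged, all from Rattus norvegicus and with no agent or genotype named. Strain, sex, age in months, passage and culture condition are missing from the labels. The labels call the libraries of each group biological replicates, without saying whether they came from separate animals. The p-values measure the spread between these libraries, and part of that spread may be technical. Young replicate 2 stood furthest from its group, with a count chi-square per degree of freedom of 11.1 and 9.13 against the others. Every other pair within a group had 3.16 to 3.64.

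Each synthetase joins an amino acid to its matching transfer RNA (tRNA), the step that makes the genetic code readable by the ribosome. In animal cells the cytosol and the mitochondria use separate enzymes for most amino acids, all encoded in the nucleus. In the cytosol 8 of the synthetase proteins sit together with 3 scaffold proteins in the multisynthetase complex, while the others act outside it. In stromal cells these enzymes supply the heavy protein production of matrix-secreting cells, and many cytosolic ones are known targets of the transcription factor ATF4, which responds to amino acid shortage.

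Totals ranged from 34638874 to 42479626 counts per library, and the 40 genes had at least 65 counts in every library, so that all of them were tested. Transcripts encoded by mitochondrial DNA took 1.18% ± 0.157 of the counts in young and 4.33% ± 0.113 in aged libraries (SD, n = 3 each). All 10 stromal markers had counts. They summed to 40504 to 41041 counts scaled to a common library total (CPM) in young and 20253 to 20491 CPM in aged libraries. Most of that sum was Col1a1 and Col1a2, while Lepr and Vcam1 averaged under 1 CPM in both groups. The markers did not move as one: Cxcl12 was 16.7-fold lower, Nt5e rose 4.48-fold, and Eng and Vcam1 were not called. Lepr was called higher, but on only 1, 2 and 10 counts in young and 28, 26 and 14 in aged libraries. The 8 haematopoietic markers summed to 84.0 to 84.3 CPM in young and 42.9 to 44.1 CPM in aged libraries. Cd14 made up most of the young sum, while in aged libraries Cd14 averaged 21.0 CPM and Csf1r 21.8 ± 0.552 CPM, the latter up from 0.321 ± 0.182 CPM (SD, n = 3 each). The defining leukocyte gene Ptprc had 0 counts in every young library, which allows up to 0.0840 CPM by counting error alone (3 counts), and 1 count in 1 aged library. The 6 endothelial markers summed to at most 0.678 CPM and the 4 erythroid markers to at most 0.121 CPM in any library. The part of these differences in the synthetase results was not tested. In such bulk RNA, fewer cells of a type and less RNA per cell cannot be told apart.

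Cytosolic synthetase genes mostly rose in aged cells, whereas similar numbers of mitochondrial ones were called higher and lower, a balance that depends on the scaling. Of the 20 cytosolic genes, 14 rose and 5 were lower, with a median log2 fold change of 0.38. Of the 17 mitochondrial genes, 6 rose, 6 were lower and 5 were not called, with a median of 0.01. With library size alone, 8 mitochondrial genes were called higher and 1 lower, and without a low-count filter 5 and 8. Among the 3 scaffold genes, 2 were higher and 1 was not called. Calls are at a Benjamini-Hochberg adjusted p under 0.05 in edgeR's quasi-likelihood test over 14273 genes, of which 86.4% were called, 44.7% as higher and 41.8% as lower, with a median log2 change of 0.05. The share of members called, 33 of 40 in either direction, is thus near the background and says nothing particular about them, and the difference between the cytosolic and mitochondrial counts was not tested.

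The scaling of the libraries matters for small changes. The fold changes here use TMM factors, which assume that most genes do not differ. Scaling by library size alone moved the median of all genes from 0.05 to 0.39, and 62.3% of called genes were then higher instead of 51.7%. Under that scaling all 22 members called higher kept the call, but of the 11 called lower 4 did: Qars1, Vars1, Kars1 and Sars2. The other 7 falls are given below as relative to other genes, since their calls end under that scaling.

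**Figure D1:**
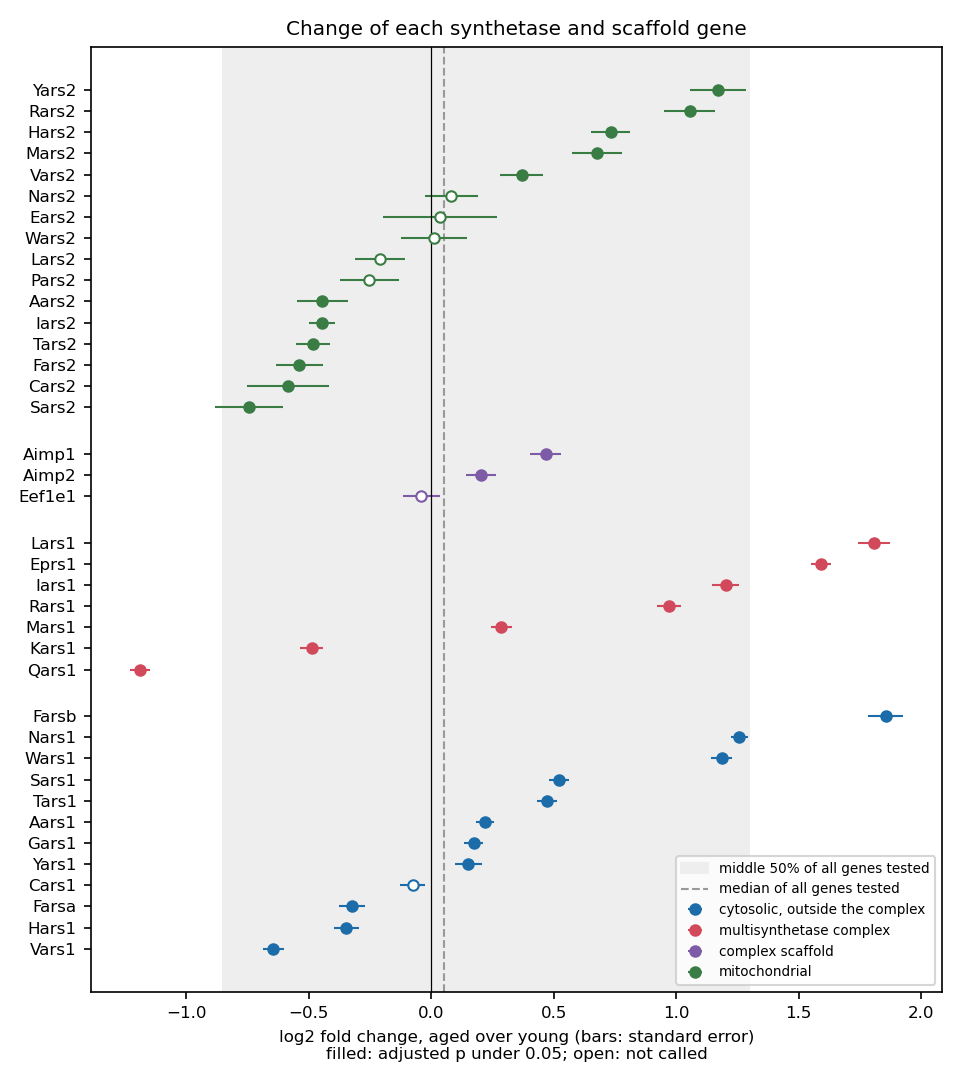
Log2 fold change, aged over young, of 38 of the 40 genes with its standard error, grouped by cytosolic synthetases outside the complex, complex synthetases, scaffolds and mitochondrial synthetases; filled points had adjusted p under 0.05. The grey band holds the middle 50% of all genes tested, from -0.85 to 1.30, and 4 of the 40 genes lie outside it: Farsb, Lars1 and Eprs1 above and Qars1 below.

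**Figure D2:**
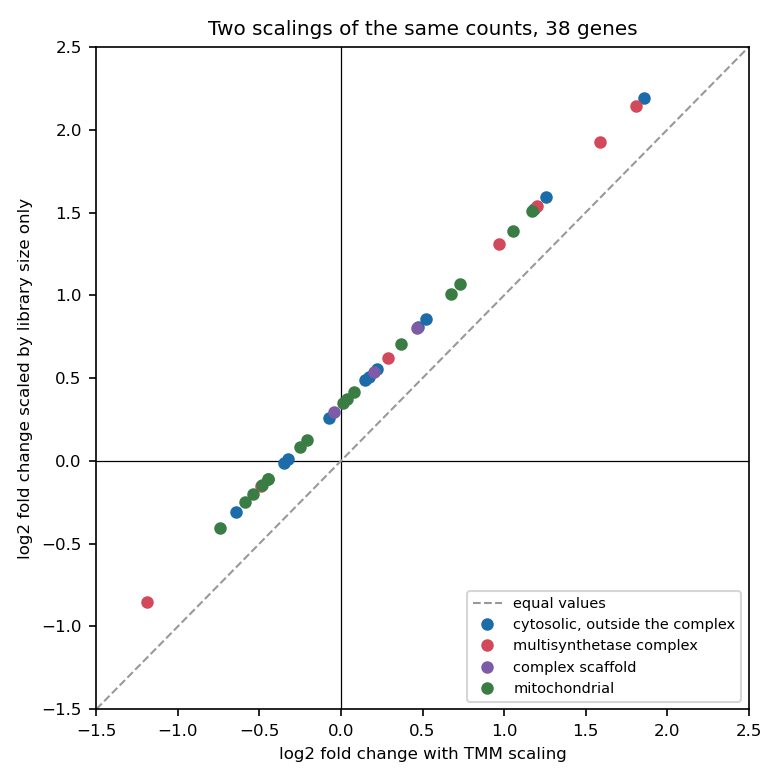
Log2 fold change of 38 of the 40 genes with TMM scaling (horizontal) against library size alone (vertical), with a dashed line of equal values. All points lie above the line by nearly the same amount, and Farsa, Pars2, Lars2, Cars1 and Eef1e1, between -0.32 and -0.04 on the horizontal axis, lie above 0 on the vertical one.

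The spread of the members was modest beside that of all genes. Farsb, which rose by 1.85 on the log2 scale, stood at percentile 81.9 of all tested genes, Lars1 at 81.5 and Eprs1 at 78.9. Qars1, at -1.19, stood at percentile 17.1. A rise of at least 2-fold was called in 8 members and a fall of that size in 1, against 29.4% and 21.0% of all genes.

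Within the multisynthetase complex the genes moved apart. Of its 8 synthetase genes, 6 rose and 2 were lower. Lars1, the leucine enzyme that also serves as a leucine sensor for the growth kinase mTORC1, had 26.4, 30.6 and 31.6 CPM in the young libraries and 110, 102 and 99.2 CPM in the aged ones. The groups did not overlap, and the rise was 3.50-fold (log2 change 1.81, SE 0.06, edgeR adjusted p = 2.3e-14). Eprs1 encodes the fused enzyme for glutamate and proline, which is prominent in collagen-making cells because collagen is rich in proline. Its level was 108, 119 and 111 CPM in young and 345, 334 and 338 CPM in aged libraries, a rise of 3.01-fold (edgeR adjusted p = 2.0e-16). Every aged library was above every young one.

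The isoleucine gene Iars1 rose 2.30-fold, from 39.5 ± 2.28 to 91.0 ± 4.17 CPM (SD, n = 3 each). The arginine gene Rars1 rose 1.96-fold. The methionine gene Mars1, whose enzyme charges the initiator tRNA, rose 1.22-fold, from 90.7 ± 2.48 to 111 ± 2.37 CPM. In all 3 of these the groups were separate.

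Qars1 went the other way. This gene of the glutamine enzyme had 253, 233 and 252 CPM in young and 109, 106 and 109 CPM in aged libraries. It was 2.28-fold lower (log2 change -1.19, SE 0.04, edgeR adjusted p = 1.3e-14), and -0.85 when scaled by library size alone. Kars1, the lysine gene whose transcripts serve both the cytosol and the mitochondria, had 150, 142 and 153 CPM in young and 111, 107 and 98.9 CPM in aged libraries. It was 1.40-fold lower (edgeR adjusted p = 3.5e-08), and the log2 change was -0.49 here and -0.15 after scaling by library size alone (edgeR adjusted p = 0.0068). Both genes were lower in every aged library than in any young one.

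The ratio of genes within a library does not depend on the scaling. The log2 ratio of Lars1 to Qars1 was -3.06 ± 0.18 in young and -0.06 ± 0.07 in aged libraries (SD, n = 3 each), an 8.01-fold change. The ratio of Eprs1 to Qars1 changed 6.87-fold. These 2 ratios, and that of Farsb to Farsa below, were chosen after the values were seen, and since transcript lengths were not used here the ratios compare groups and not the abundance of one gene with another.

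The 3 scaffold genes differed by at most 1.38-fold. Aimp1, whose protein binds tRNA and is also released as a cytokine, had 30.3, 30.8 and 30.6 CPM in young and 45.0, 39.6 and 41.9 CPM in aged libraries, a 1.38-fold rise (edgeR adjusted p = 2.3e-06). Aimp2, the core scaffold, had 35.02, 33.66 and 35.29 CPM in young and 37.7, 40.9 and 41.1 CPM in aged libraries, a 1.15-fold rise (edgeR adjusted p = 0.0050). For both, the aged libraries were all above the young ones. Eef1e1, the smallest scaffold, had 24.8, 28.5 and 25.8 CPM in young and 27.7, 24.6 and 24.6 CPM in aged libraries. The groups overlapped, the log2 change was -0.04 with SE 0.08, and it was not called (edgeR adjusted p = 0.61). Scaled by library size alone it was higher, by 0.29.

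Outside the complex, the subunit genes of the phenylalanine enzyme moved apart. The enzyme is built of equal numbers of an alpha subunit, encoded by Farsa, and a beta subunit, encoded by Farsb. Farsb had 15.3, 18.5 and 15.7 CPM in young and 59.5, 58.7 and 61.1 CPM in aged libraries, a rise of 3.62-fold (log2 change 1.85, SE 0.07, edgeR adjusted p = 6.4e-14). Farsa had 68.8, 63.2 and 69.3 CPM in young and 51.8, 55.2 and 53.8 CPM in aged libraries. It was 1.25-fold lower relative to other genes (edgeR adjusted p = 2.4e-05), with a log2 change of 0.01 when scaled by library size alone. The log2 ratio of Farsb to Farsa was -2.03 ± 0.22 in young and 0.16 ± 0.06 in aged libraries (SD, n = 3 each), a 4.55-fold change with no overlap.

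**Figure D3:**
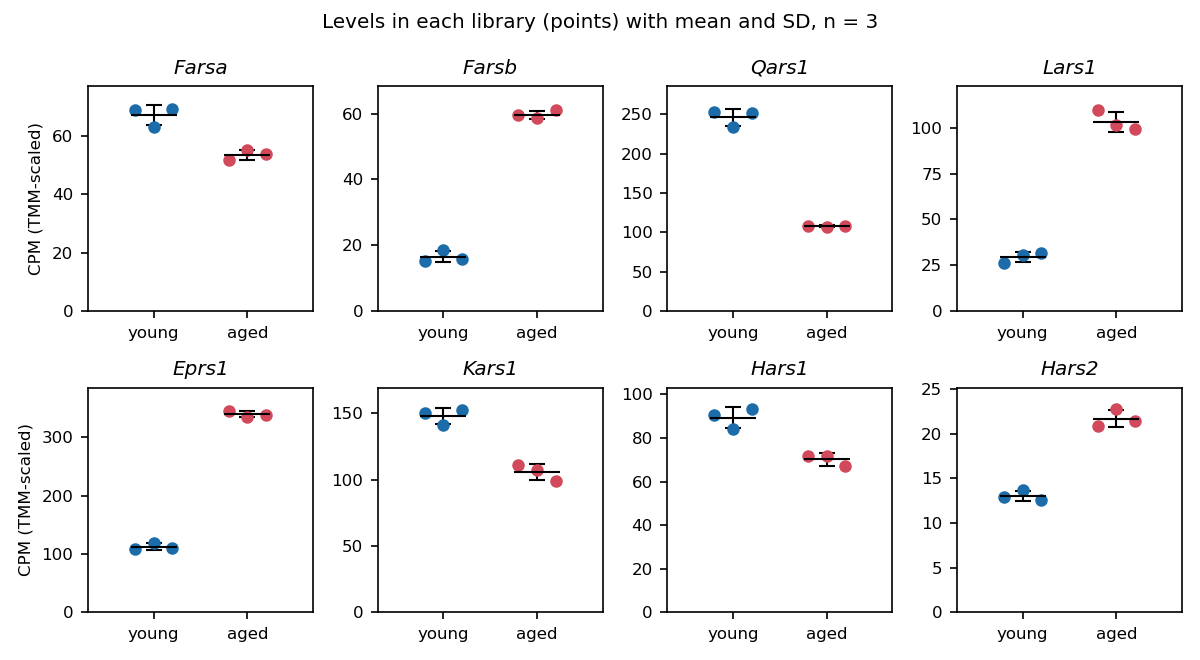
TMM-scaled CPM of 8 genes in each of 3 young and 3 aged libraries (points) with mean and SD; each vertical axis starts at 0 and has its own range. Farsb, Lars1, Eprs1 and Hars2 are higher in every aged library, and Farsa, Qars1, Kars1 and Hars1 are lower.

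Nars1, the asparagine gene, had 134, 129 and 136 CPM in young and 318, 322 and 314 CPM in aged libraries and rose 2.39-fold (edgeR adjusted p = 1.1e-15). Wars1, the tryptophan gene, which is also induced by interferon, had 61.1, 59.2 and 62.6 CPM in young and 140, 135 and 141 CPM in aged libraries and rose 2.27-fold (edgeR adjusted p = 3.9e-14). In both the aged values were more than 2 times the young ones in every library. Sars1 and Tars1, for serine and threonine, rose 1.43-fold and 1.39-fold.

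Smaller rises were called in 3 further genes. Aars1, for alanine, rose 1.16-fold, and Yars1, for tyrosine, rose 1.11-fold. Gars1, the glycine gene, which serves both the cytosol and the mitochondria, had 130, 130 and 134 CPM in young and 146, 151 and 147 CPM in aged libraries, a 1.13-fold rise (edgeR adjusted p = 4.9e-04). The Yars1 call (edgeR adjusted p = 0.018) was lost without young replicate 1 (adjusted p = 0.060) and without aged replicate 3 (adjusted p = 0.13).

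Vars1, the valine gene, had 130, 124 and 132 CPM in young and 82.6, 79.7 and 84.9 CPM in aged libraries. It was 1.56-fold lower (edgeR adjusted p = 2.1e-10), and still lower by 0.31 on the log2 scale when scaled by library size alone. Hars1, the histidine gene, had 90.6, 84.0 and 93.3 CPM in young and 71.6, 71.9 and 66.9 CPM in aged libraries. It was 1.27-fold lower relative to other genes (edgeR adjusted p = 6.5e-06), but its log2 change was -0.01 when scaled by library size alone (adjusted p = 0.83). Cars1, the cysteine gene, had 57.5, 56.8 and 61.6 CPM in young and 55.7, 55.3 and 55.8 CPM in aged libraries and was not called (log2 change -0.08, edgeR adjusted p = 0.17), although its groups did not overlap. Scaled by library size alone it was higher, by 0.26 (adjusted p = 1.6e-04).

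Of the mitochondrial genes, 4 rose by more than 1.5-fold. Yars2, the tyrosine gene of mitochondria, had 5.85, 4.80 and 5.01 CPM in young and 11.4, 12.1 and 11.7 CPM in aged libraries, a 2.25-fold rise (edgeR adjusted p = 2.9e-08). Rars2, for arginine, had 5.54, 6.07 and 5.63 CPM in young and 12.3, 11.9 and 11.6 CPM in aged libraries, a 2.08-fold rise (edgeR adjusted p = 4.2e-08). Hars2, for histidine, had 12.9, 13.7 and 12.6 CPM in young and 20.9, 22.8 and 21.4 CPM in aged libraries, a 1.66-fold rise (edgeR adjusted p = 1.4e-07). None of the 3 had overlapping groups.

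Mars2, for methionine, had 7.90, 8.44 and 7.02 CPM in young and 12.1, 12.4 and 12.8 CPM in aged libraries, a 1.596-fold rise (edgeR adjusted p = 8.7e-06). Vars2 rose 1.29-fold.

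Relative to other genes, 6 mitochondrial genes were lower. Sars2, for serine, had 7.56, 7.33 and 8.17 CPM in young and 3.83, 4.79 and 5.15 CPM in aged libraries and was 1.68-fold lower (edgeR adjusted p = 7.8e-05). It was also lower when scaled by library size alone (log2 change -0.41, adjusted p = 0.011). Cars2, for cysteine, had 5.04, 6.62 and 6.13 CPM in young and 4.87, 3.58 and 3.41 CPM in aged libraries (edgeR adjusted p = 0.0034). Fars2, the single-chain phenylalanine enzyme of mitochondria, had 15.65, 14.03 and 12.90 CPM in young and 9.98, 9.38 and 9.97 CPM in aged libraries (edgeR adjusted p = 6.3e-05). Tars2, for threonine, had 31.1, 30.5 and 34.3 CPM in young and 22.6, 22.6 and 23.4 CPM in aged libraries (edgeR adjusted p = 4.2e-06). The aged libraries lay below the young ones in each of these genes, narrowly so in Cars2. Iars2 and Aars2 were each 1.36-fold lower. With library size alone, the calls of Cars2, Fars2, Tars2, Iars2 and Aars2 ended, with adjusted p of 0.17, 0.062, 0.055, 0.061 and 0.34 at log2 changes of -0.25, -0.20, -0.15, -0.11 and -0.11.

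The other 5 mitochondrial genes were not called, and the groups overlapped in each. Pars2, for proline, had 7.43, 9.26 and 9.01 CPM in young and 6.95, 7.73 and 6.87 CPM in aged libraries (edgeR adjusted p = 0.057). Lars2, for leucine, had 15.2, 15.1 and 14.8 CPM in young and 15.0, 12.7 and 11.2 CPM in aged libraries (edgeR adjusted p = 0.064). Both lie close to the threshold: Pars2 passed it without young replicate 1 (adjusted p = 0.0099), Lars2 without aged replicate 1 (adjusted p = 0.0089), and both when low counts were not filtered (adjusted p = 0.049 and 0.035).

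Nars2, for asparagine, had 8.34, 10.3 and 9.91 CPM in young and 10.6, 9.97 and 9.69 CPM in aged libraries (edgeR adjusted p = 0.48). Wars2, for tryptophan, had 4.88, 4.75 and 4.79 CPM in young and 4.67, 4.91 and 4.95 CPM in aged libraries (edgeR adjusted p = 0.94). Ears2, for glutamate, had 1.99, 2.06 and 2.10 CPM in young and 1.57, 2.18 and 2.56 CPM in aged libraries (edgeR adjusted p = 0.89). The Ears2 estimate rests on 65 to 100 counts per library and has an SE of 0.23 on the log2 scale. With library size alone, its log2 change of 0.37 was not called either (adjusted p = 0.14). A separate row, Ears2l1, had 21 to 41 counts, and reads could be split between the 2 genes if their sequences are alike. When scaled by library size alone, Nars2 and Wars2 were called higher, by 0.42 and 0.35.

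For each amino acid with an enzyme in both compartments, the cytosolic gene was set against the mitochondrial one in each library. This gave 18 ratios over 17 amino acids, with Farsa and Farsb each set against Fars2 and Eprs1 set against both Ears2 and Pars2, so the ratios are not all independent. In 12 ratios every aged library was above every young one, in 5 every aged library was below, and in 1, Farsa to Fars2, the groups overlapped. Across single genes, 87.5% did not overlap between the groups. An exact two-sided permutation test over 3 against 3 libraries cannot go below p = 0.10, which the 17 ratios without overlap reached (adjusted p = 0.11 over the 18), so none could pass 0.05.

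The shift toward the cytosolic gene was widest for phenylalanine by way of Farsb, 5.26-fold, and for leucine. The log2 ratio of Lars1 to Lars2 was 0.80, 1.02 and 1.09 in young and 2.87, 3.0 and 3.15 in aged libraries, a 4.09-fold change. Proline and isoleucine followed, with 3.58-fold for Eprs1 to Pars2 and 3.13-fold for Iars1 to Iars2. In the isoleucine pair the cytosolic gene rose and the mitochondrial gene was lower relative to other genes, as also in the serine, threonine and alanine pairs.

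The ratio moved toward the mitochondrial gene for histidine, tyrosine, valine, methionine and, barely, arginine. The log2 ratio of Hars1 to Hars2 was 2.81, 2.62 and 2.89 in young and 1.78, 1.66 and 1.64 in aged libraries, a 2.11-fold change. Yars1 to Yars2 changed 2.04-fold and Vars1 to Vars2 2.02-fold in the same direction. Rars1 to Rars2 changed by -0.08 on the log2 scale, since both arginine genes rose about equally.

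**Figure D4:**
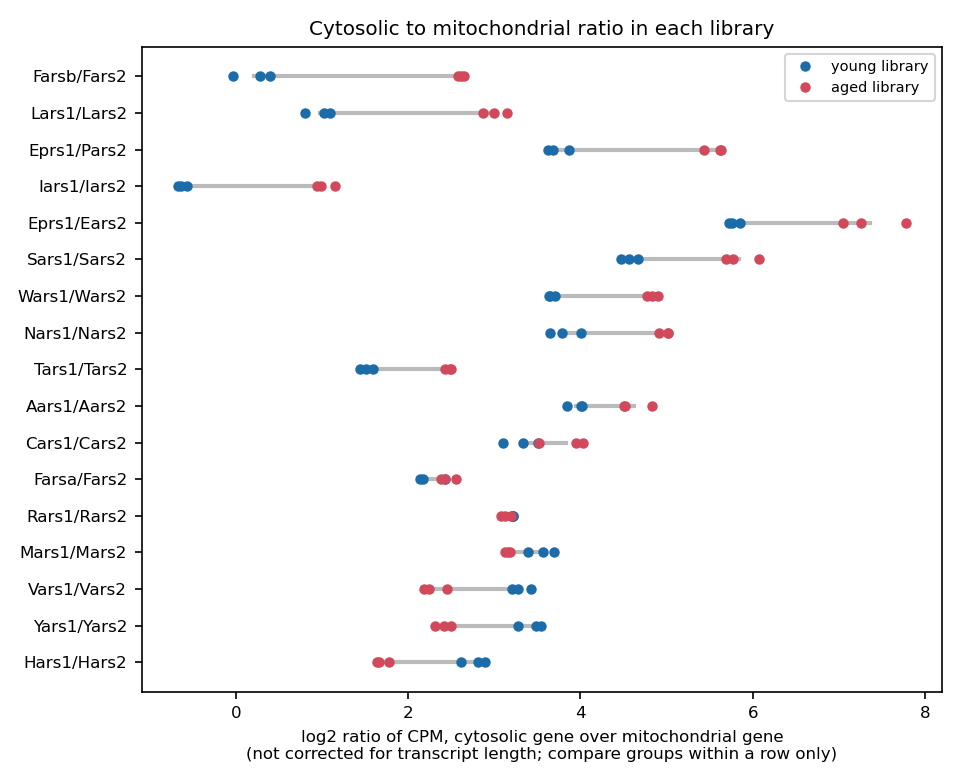
Log2 ratio of CPM of the cytosolic over the mitochondrial gene for 17 of the 18 pairs, with each young and each aged library as a point and a grey bar between group means. Aged points lie to the right of young points in 11 of these pairs, to the left in 5, and overlap them for Farsa/Fars2; the position of a row is not corrected for transcript length.

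Hars1 and Hars2 are neighbours that face away from each other. In RefSeq (GRCr8) they are read from opposite strands, and 97 bases separate their outermost annotated starts, at chr18:28672713-28672809, shown because the short stretch lies upstream of both genes, which moved in opposite directions relative to other genes. It is written on the plus strand, from Hars1 on the left to Hars2 on the right, without capitals since no motif is marked, and 55.7% of its bases are G or C.
Hars1-Hars2: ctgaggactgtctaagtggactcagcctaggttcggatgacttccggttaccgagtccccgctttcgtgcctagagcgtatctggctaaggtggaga

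A promoter motif that the selection did not use was found in some of the cytosolic genes. RefSeq promoters of 300 bases, 250 before and 50 after the start, were matched for 36 of the 40 members. The sequence TGATGNAA, the core of the element that ATF4 binds with C/EBP partners, was searched on both strands. It was found in 7 of 17 cytosolic promoters (41.2%), in 0 of 16 mitochondrial ones and in 0 of 3 scaffold promoters, against 2.39% of the promoters of 11183 tested genes. Each of the 7 promoters holds a match that reads TGATGCAA, and the 30 bases around it are shown for 6 of them for comparison, on the strand where the motif reads in that direction, with the motif in capitals.
Cars1: tttccagaatcTGATGCAAccgcggcgccg
Iars1: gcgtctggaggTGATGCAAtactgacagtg
Mars1: ggagcccacgcTGATGCAAccggaacgggc
Nars1: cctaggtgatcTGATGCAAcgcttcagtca
Tars1: agctaaccagcTGATGCAAcgggacgccag
Yars1: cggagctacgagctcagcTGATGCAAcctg

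These stretches lie at chr1:208225334-208225363 (plus strand), chr17:15193658-15193687 (plus), chr7:65023752-65023781 (plus), chr18:60275778-60275807 (minus), chr2:62114811-62114840 (plus) and chr5:146820183-146820212 (plus), in that order. In Iars1, Mars1, Nars1 and Tars1 the motif begins 14 to 27 bases before the start, and in Cars1 and Yars1 after it. Aars1 is the other gene with a match, and its window holds a further one, which reads TGATGAAA. The 7 genes with a match had a median log2 change of 0.29, from -0.08 (Cars1, not called) to 1.26 (Nars1). The 10 cytosolic genes without one had a median of 0.10 and ranged from -1.19 (Qars1) to 1.85 (Farsb), so both sets spread widely. A match is a description of letters and not a binding site, and its part in any change was not tested. The motif of the factor NRF1, GCGC and TGCGC with any base between them on either strand, was found in 3 of 17 cytosolic (17.6%) and 3 of 16 mitochondrial promoters (18.8%), against 9.98% of tested genes.

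Synthetases known as ATF4 targets were mostly higher. Of the 13 such cytosolic genes listed, 11 rose, Vars1 was lower and Cars1 was not called, with a median log2 change of 0.47. Of all genes tested, 44.7% were called higher and 41.8% lower, with a median of 0.05. Of the other 7 cytosolic genes, 3 rose, among them Farsb and Rars1, and 4 were lower relative to other genes. Of these 4, Farsa and Hars1 lost the call with library size alone, at log2 changes of 0.01 and -0.01. The difference between the listed targets and the other cytosolic genes was not tested. By catalytic fold, 10 of 18 class I genes rose and 4 were lower (median 0.22). Of 18 class II genes, 9 rose and 7 were lower (median 0.13). Eprs1 holds both folds and was left out. With library size alone, the counts were 12 higher and 2 lower in class I (median 0.55), and 10 and 2 in class II (0.46). The median of all genes was then 0.39, and the difference of either class from all genes was not tested.

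ATF4 itself and the other genes of the amino acid response did not move as one. Atf4 rose from 401 ± 5.46 to 470 ± 6.13 CPM, 0.23 on the log2 scale (edgeR adjusted p = 2.0e-06). Of 25 listed genes, 13 rose and 8 were lower, with a median log2 change of 0.16. The shares over all genes tested were 44.7% and 41.8%, with a median of 0.05. When scaled by library size alone, 17 listed genes rose and 6 were lower, while the median of all genes moved to 0.39. These differences were not tested. Asns, encoding asparagine synthetase, rose from 32.0 ± 1.64 to 87.8 ± 4.32 CPM, a log2 change of 1.46. The stress factor gene Ddit3 (CHOP) and the pseudokinase gene Trib3 rose by 1.44 and 1.46. The smallest p-values belonged to the cystine transporter gene Slc7a11, which rose by 5.36, and Cebpb, a partner of ATF4, which was lower by -1.91. Chac1, a glutathione-degrading enzyme gene, was lower by -0.30, and by library size alone it changed to 0.04.

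Among the kinases and regulators that act above ATF4, 7 of 9 listed genes rose and 1 was lower, with a median of 0.48. Of all genes tested, 44.7% were called higher and 41.8% lower, with a median of 0.05. With library size alone, 8 listed genes rose and 1 was lower, with a median of 0.81 against 0.39 for all genes. The difference was not tested. Eif2ak4 encodes GCN2, the kinase that senses uncharged tRNA. It had 15.0 ± 2.12 CPM in young and 16.9 ± 1.38 CPM in aged libraries and was not called (edgeR adjusted p = 0.12). Scaled by library size alone, Eif2ak4 was called higher, by 0.51 (edgeR adjusted p = 2.05e-04). The smallest p-values were those of Eif2ak2, encoding the kinase PKR, with a log2 change of 3.87, and Gcn1, encoding the activating partner of GCN2, with -0.86. Impact, encoding an inhibitor of GCN2, rose by 1.14.

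Elongation factors, which act after the synthetases, were also counted by compartment. Of all genes tested, 44.7% were called higher and 41.8% lower. All 7 listed genes of cytosolic elongation were lower, under each of the 3 scalings, with a median of -1.26. The list includes Eef1akmt1 (-1.26), which encodes a methyltransferase of the Eef1a1 protein and not an elongation factor. Eef1a1, the factor that carries charged tRNA to the ribosome, went from 5661 ± 97.1 to 1811 ± 15.0 CPM, a log2 change of -1.64, and Eef2, the translocation factor, changed by -1.63. Of 5 mitochondrial elongation genes, 4 rose and Tufm, the mitochondrial counterpart of Eef1a1, was lower, from 76.1 ± 4.31 to 44.9 ± 1.98 CPM. Guf1, a further mitochondrial elongation factor gene, rose by 1.10.

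Genes that process and export tRNA were mostly higher, with 11 of 16 higher and 5 lower and a median of 0.82. Over all genes tested, 44.7% were called higher and 41.8% lower, with a median of 0.05, and the difference was not tested. Xpot, the exporter of tRNA from the nucleus and itself an ATF4 target, rose from 63.6 ± 1.86 to 260 ± 1.33 CPM (log2 change 2.03, edgeR adjusted p = 6.9e-18). Trnt1, which adds the CCA end that the synthetases charge, rose from 3.79 ± 1.01 to 43.9 ± 2.67 CPM, a log2 change of 3.53. Rtcb, the tRNA ligase gene, was lower by -0.13, and higher by 0.20 with library size alone.

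Enzymes related to the synthetases were divided, with 5 of 11 higher and 6 lower, against 44.7% and 41.8% of all genes tested. Mitochondria make glutaminyl-tRNA by an indirect route, in which the Ears2 enzyme loads glutamate and an amidotransferase of 3 subunits converts it. Its subunit genes Qrsl1 and Gatb rose by 0.64 and 0.59 on the log2 scale, while Gatc was lower by -1.14. The smallest p-values in this list were those of Aarsd1, an editing factor for mischarged alanyl-tRNA, at 38.6 ± 1.42 and 13.5 ± 0.545 CPM, and Gatc. The list median was -0.23 and became 0.11 with library size alone, while that of all genes went from 0.05 to 0.39.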

How the data were processed

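RNA was extracted with TRIzol, and 6 libraries (3 young, 3 aged) of polyadenylated RNA were prepared with a VAHTS kit (labels' protocols). Named without roles are fastp, HISAT2 and HTSeq, per the submitters' processing notes. Versions, genome build, annotation and strand setting were not given in the sources used here, so reads of overlapping genes cannot be told apart. The authors deposited raw read counts per gene symbol, 1 column per library, without normalization. Counts were fitted with edgeR 4.0.16 in R 4.3.3: filterByExpr with a minimum count of 10, TMM scaling, the quasi-likelihood F test with group as the only term, and Benjamini-Hochberg adjustment over 14273 genes. CPM values use TMM-scaled library sizes, and SE is the absolute log2 change over the root of the F statistic. The procedure was tested on simulated counts. The labels do not say that replicate numbers pair the libraries, so no pairing was used in the main fit. Alternatives were RLE scaling, library size alone, no filter, DESeq2 1.42.0, a replicate block and leaving out each library.

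Values per library were given for the scaffolds, the 4 largest rises and falls called in each compartment, uncalled members, Wars1, Gars1 and Kars1, and, in each pathway list, for the smallest p-values and named regulators as means. Farsa and some list genes were added after its values were seen. Members and lists were chosen with earlier results of these data known. A few genes and 1 sequence that the rules would name are not reported here.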

Additional observations from a re-analysis of the deposited data

How the results depend on the processing

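With RLE scaling and with the replicate block, all 40 members kept their direction and their side of the threshold, and with DESeq2 39 did. The replicate block gave 22 members higher and 11 lower, and 6279 and 5883 of all genes. Same-numbered young and aged libraries deviated together with correlations of -0.013 to 0.026 across genes, and differently numbered ones with -0.030 to 0.023. Such small values cannot tell whether same-numbered libraries shared a preparation, which the labels do not say. With library size alone, 4 members were lower (3 cytosolic, 1 mitochondrial), and the medians were 0.52 for all members, 0.72 cytosolic, 0.35 mitochondrial and 0.54 scaffold. The mitochondrial genes called higher were then 8, and with DESeq2 5 were higher and 6 lower. Leaving out each library gave 5 to 6 higher and 6 to 7 lower. With library size alone directions reversed for Cars1 (0.26), Eef1e1 (0.29), Farsa (0.0127), Lars2 (0.13) and Pars2 (0.082). A scaling to nuclear genes without TMM, added after seeing the data, gave 4 lower (3 cytosolic, 1 mitochondrial), medians of 0.57, 0.76, 0.39 and 0.59, and reversals of Cars1 (0.31), Eef1e1 (0.34), Farsa (0.059), Hars1 (0.035), Lars2 (0.17) and Pars2 (0.13). With no low-count filter Wars2 was at -0.0034. Leaving out each library in turn, the median ran from 0.14 to 0.20 for all members, from 0.18 to 0.24 for scaffolds and from -0.12 to 0.036 for mitochondrial genes. Uncalled genes that changed sign ran from -0.13 to 0.21 (Ears2), -0.027 to 0.14 (Nars2), -0.11 to 0.012 (Eef1e1) and -0.0060 to 0.036 (Wars2). All 18 ratios kept their direction, but for most of them this was fixed in advance. Scaling cannot change a ratio within a library, and leaving out a library cannot reverse the 17 ratios whose groups did not overlap. The cause of the changes between settings was not tested. Depth limits the low mitochondrial genes most, such as Ears2.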

Other observations

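Genes of RNA polymerase III, the enzyme that transcribes tRNA genes, were divided in the aged cells. Of 18 listed genes, 9 rose and 7 were lower, with a median log2 change of 0.18, against 0.05 for all genes tested. Of all genes tested, 44.7% were called higher and 41.8% lower. With library size alone, 11 listed genes were higher and 5 lower, with a median of 0.52 against 0.39 for all genes. The smallest p-value was that of Bdp1, a subunit of the initiation factor, which went from 3.44 ± 0.742 to 63.3 ± 4.54 CPM (SD, n = 3 each). Maf1, encoding the repressor of the enzyme, was lower by -0.67 on the log2 scale (edgeR adjusted p = 1.6e-10). The alternative subunits Polr3g and Polr3gl, which replace each other in the enzyme, changed in opposite directions, by 3.03 and -1.68. These 3 genes, Maf1, Polr3g and Polr3gl, were picked after their values were seen.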
